A study of Homo sapiens with 11 samples.

Results

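Ikaros peaks were examined at 10 genes of glucose uptake and glycolysis, out of 20033 protein-coding genes in the annotation. They were taken by name and comprised the transporters SLC2A1 and SLC2A3, the hexokinases HK1 and HK2, the later glycolytic enzymes PGK1, PGAM1, ENO1 and PKM, the lactate dehydrogenase LDHA and the uptake regulator TXNIP. A peak was counted for a gene when the authors had named it for that gene, when it overlapped the gene body, or when any part of it lay within 1000 bp of an annotated transcription start site (TSS) of the gene. This gave 130 peaks over 5 lists, of which 38 lay within 1000 bp of the main TSS, the start of the Ensembl canonical transcript. A further 26 lay near another TSS of the gene, 61 lay in the gene body away from every TSS, and 5 were placed outside the gene but carried its name.

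The lists came from chromatin immunoprecipitation and sequencing (ChIP-seq) with antibodies against Ikaros, the zinc finger transcription factor encoded by IKZF1, in human lines of B-cell precursor acute lymphoblastic leukemia. JM1, REH and 697 were each profiled without treatment. JM1 and Nalm6 were profiled after CX-4945, a small molecule that blocks the kinase CK2, at 20 µM for 1 day, and these lists are called treated JM1 and Nalm6 below. JM1 and REH were probed with a Bethyl antibody and 697 and Nalm6 with an affinity-purified antibody, so line and antibody cannot be told apart between these pairs. Nalm6 had no untreated list analysed here, each line is a single established line, and peak lists hold no expression values with which to check cell identity. Each condition had 1 list, so no difference below has a replicate check or a test. The longest list was that of treated JM1 with 88692 peaks, followed by REH with 83563, Nalm6 with 70894, untreated JM1 with 37448 and 697 with 19652. Read depth was not analysed here, and the longer lists also reached more of all protein-coding genes, as given below.

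Glycolysis splits glucose to pyruvate, and lactate dehydrogenase turns pyruvate to lactate. Glucose enters the cell through facilitative transporters and is trapped as glucose 6-phosphate by hexokinase, and TXNIP lowers uptake by promoting internalisation of transporters. Ikaros binds DNA through zinc fingers that recognise a GGGAA core, and in B-cell leukemia it has been described as a factor that limits glucose supply. CK2 is known to phosphorylate Ikaros and to lower its binding to DNA.

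The DNA before the main TSS of 4 of the genes is shown because each stands for a different pattern over the lists. PGAM1 had a promoter peak in all 5 lists and the highest percentile of the 10 genes in treated JM1, HK1 lacked one in untreated JM1 alone, LDHA lacked one in untreated JM1 and 697, and TXNIP had one in treated JM1 and REH alone. Each sequence is the 250 bases up to the base before the TSS, read 5′ to 3′ in the direction of the gene from the GRCh38 genome. Capitals mark TGGGAA, called the Ikaros core here, on either strand. They also mark CACGTG, called the E-box, which reads the same on both strands. TGGGAA is a stricter string than the GGGAA core given above. GGGAA without the leading T was neither marked nor counted, although it occurs, as in the LDHA sequence (ttccc on the other strand). The segments are chr10:97425941-97426190 on the + strand for PGAM1, chr10:69318597-69318846 on the + strand for HK1, chr11:18394313-18394562 on the + strand for LDHA and chr1:145996580-145996829 on the - strand for TXNIP.
PGAM1: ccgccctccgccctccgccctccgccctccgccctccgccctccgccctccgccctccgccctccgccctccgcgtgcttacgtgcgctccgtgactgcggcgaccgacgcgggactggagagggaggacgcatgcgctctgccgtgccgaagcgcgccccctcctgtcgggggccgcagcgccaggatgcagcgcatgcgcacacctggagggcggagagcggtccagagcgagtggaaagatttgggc
HK1: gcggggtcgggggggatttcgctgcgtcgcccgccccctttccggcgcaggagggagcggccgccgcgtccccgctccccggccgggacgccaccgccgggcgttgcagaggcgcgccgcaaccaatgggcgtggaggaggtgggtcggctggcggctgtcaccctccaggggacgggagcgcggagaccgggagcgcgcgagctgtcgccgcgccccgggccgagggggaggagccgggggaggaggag
LDHA: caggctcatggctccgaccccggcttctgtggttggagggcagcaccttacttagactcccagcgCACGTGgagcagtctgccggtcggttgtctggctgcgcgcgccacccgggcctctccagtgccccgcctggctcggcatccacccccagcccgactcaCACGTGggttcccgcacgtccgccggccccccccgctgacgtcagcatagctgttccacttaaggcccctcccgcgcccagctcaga
TXNIP: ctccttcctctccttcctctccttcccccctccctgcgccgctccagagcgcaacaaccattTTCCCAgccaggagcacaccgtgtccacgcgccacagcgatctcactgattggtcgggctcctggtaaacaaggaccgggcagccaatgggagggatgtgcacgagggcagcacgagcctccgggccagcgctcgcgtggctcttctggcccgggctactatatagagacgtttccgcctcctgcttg

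The Ikaros core, searched for as TGGGAA, was found in the promoter window of 1 of 9 genes, TXNIP. There it began 188 bases before the TSS and reads TTCCCA in the direction of the gene. The window ran from 250 bases before the TSS to 50 bases from it on. SLC2A3 was not among the genes whose promoter was read. Of 20032 windows of the same length at protein-coding genes, 22.2% held it. The E-box was present in 1 of the 9, LDHA, at 185 and 87 bases before the TSS, and in 8.76% of all windows. The shorter ACGTG, which is the core of the hypoxia response element and lies within each E-box, was present in 4 of the 9 (HK2, PGK1, PGAM1 and LDHA) and in 23.3% of all windows. A match is a description of the letters and does not show a bound site. The 9 windows were rich in G and C, from 60.3% in TXNIP to 79.3% in HK1, and 8 of the 9 lay above the median of all windows, 63.7%.

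SLC2A1, the basal glucose transporter of most cells, had a peak within 1000 bp of its main TSS in all 5 lists. The scores were 66 in REH, 61 in Nalm6, 34 and 30 in untreated and treated JM1, and 27 in 697. Scores are the authors' own, with no scale common to the lists, so each was also placed within its list as a percentile, the share of peaks with a lower score, with ties split evenly. Those percentiles were 98.0 and 85.0 for untreated and treated JM1, 95.0 for REH, 61.8 for 697 and 97.3 for Nalm6. The SLC2A1 promoter thus ranked highest in untreated JM1, above the other 4 genes with a promoter peak there, and lowest in 697. All 5 peaks covered chr1:42957914-42958785, which runs from 83 to 954 bases into the gene. The treated JM1 and REH peaks were the widest, at 4.92 and 5.71 kb, and extended upstream of the TSS, where the authors gave them to the antisense gene SLC2A1-AS1.

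SLC2A3, a transporter of high affinity, had the sparsest main promoter of the 10 genes. A peak of score 12, at the 11.9th percentile, lay at its main TSS in treated JM1 (chr12:7935596-7936320), and the other 4 lists had none there. REH and treated JM1 also had peaks, of scores 34 and 15, at a far TSS of a long SLC2A3 transcript, centred 82.8 and 82.6 kb upstream, which the authors gave to AC006511.2. REH is counted for SLC2A3 by that far TSS alone. Upstream of the main TSS, 34.7 kb away, a site inside the same long transcript had peaks in treated JM1 (score 49, 95.0th percentile), REH (86, 97.6th) and Nalm6 (20, 48.1st). The authors gave this site to a Y_RNA gene, and in treated JM1 it scored above the peak at the main promoter. REH and Nalm6 also had peaks of scores 29 and 15, named for SLC2A3, downstream of the gene.

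**Figure D1:**
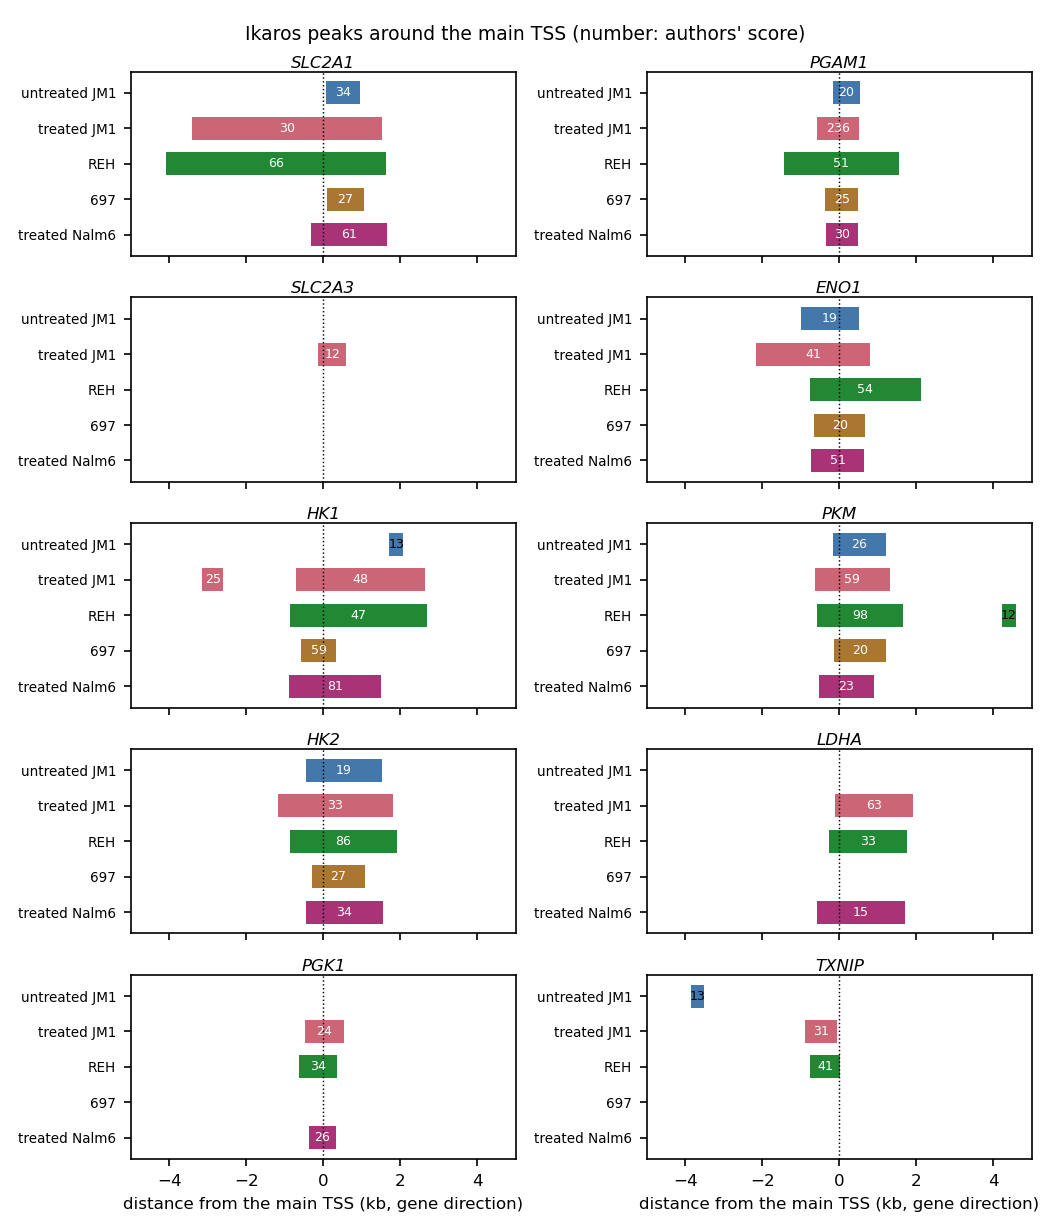
Ikaros peaks within 5 kb of the main TSS of each of the 10 genes, by list. The x axis is the distance from the main TSS in kb in the direction of the gene, each bar is 1 peak drawn from its start to its end, and the number on it is the authors' score. SLC2A1, HK2, PGAM1, ENO1 and PKM have a bar within 1000 bp of the TSS in all 5 lists, and TXNIP in treated JM1 and REH alone.

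HK1, the hexokinase found in most tissues, had a promoter peak in every list other than untreated JM1. Its scores were 81 in Nalm6, 59 in 697, 48 in treated JM1 and 47 in REH. These stood at the 99.5th, 95.5th, 94.8th and 89.8th percentiles, the highest of the 10 genes in 697 and in Nalm6. The peaks shared chr10:69318273-69319186, from -574 to 339 bases from the TSS. Untreated JM1 had instead a narrow peak of 367 bp and score 13 (29.8th percentile) in intron 1, whose nearest edge was 1669 bp from the closest TSS. The wide treated JM1 and REH peaks, of 3.37 and 3.57 kb, ran over this intronic site as well as the TSS. The whole untreated peak held 1 E-box and 1 match to the Ikaros core, the latter outside the bases shown here. The middle 300 bases of the untreated peak, chr10:69320591-69320890 on the + strand, are shown because this was the JM1 site nearest to the HK1 promoter before treatment, with its single E-box in capitals.
HK1 intron 1: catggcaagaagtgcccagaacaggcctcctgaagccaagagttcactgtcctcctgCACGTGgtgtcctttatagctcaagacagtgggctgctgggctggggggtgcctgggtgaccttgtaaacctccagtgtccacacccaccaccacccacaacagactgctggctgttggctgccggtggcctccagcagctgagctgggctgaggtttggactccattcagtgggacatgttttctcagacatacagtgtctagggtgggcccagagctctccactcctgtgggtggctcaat

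HK2, the inducible hexokinase of proliferating cells, had a main promoter peak in all 5 lists, with scores of 86 in REH, 34 in Nalm6, 33 in treated JM1, 27 in 697 and 19 in untreated JM1. The percentiles were 97.6, 81.8, 88.1, 61.8 and 75.7 in the same order, highest in REH. The shared part, chr2:74833825-74835209, spanned 1385 bp and was the whole of the 697 peak. It held 1 match to the Ikaros core and 2 E-boxes. The authors gave the treated JM1 and 697 peaks to the neighbouring AC019069.1, so these would be missed in a search by the name HK2. REH had 2 further peaks named for HK2, of scores 13 and 15, upstream of the gene.

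Among the later glycolytic enzymes, PGAM1, ENO1 and PKM had promoter peaks in all 5 lists and PGK1 in 3. PGK1, which makes the first ATP of the pathway, had scores of 34 in REH, 26 in Nalm6 and 24 in treated JM1 (80.5th, 67.4th and 74.3rd percentiles), and neither untreated JM1 nor 697 had a peak there. The single untreated JM1 peak named for PGK1 (chrX:78024535-78024906, score 16) lay 79.5 kb upstream of the main TSS, within a long PGK1 transcript. Treated JM1 also had a peak of score 30 (85.0th percentile) at the start of that transcript, which the authors gave to AL356235.1. PGAM1, a phosphoglycerate mutase, had the highest score of any peak of the 10 genes, 236 in treated JM1, against 51 in REH, 30 in Nalm6, 25 in 697 and 20 in untreated JM1. The treated JM1 value stood at the 99.9th percentile of its list, while the others stood at the 91.3rd, 75.8th, 56.9th and 79.9th. The REH peak was the widest at 2994 bp, and the treated JM1 peak was 1098 bp wide and the untreated one 706 bp.

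ENO1 encodes the enolase of most cells. Its promoter scores were 54 in REH, 51 in Nalm6, 41 in treated JM1, 20 in 697 and 19 in untreated JM1, at the 92.2nd, 94.3rd, 92.6th, 41.3rd and 75.7th percentiles. The part common to all 5 peaks (chr1:8878186-8879346) held 4 E-boxes and 1 match to the Ikaros core, more E-boxes than the common part at any of the other 8 genes read. PKM, the pyruvate kinase that yields pyruvate and ATP, scored 98 in REH, 59 in treated JM1, 26 in untreated JM1, 23 in Nalm6 and 20 in 697. Its percentiles were 98.5, 96.7, 93.0, 58.9 and 41.3, high in the lists made with the Bethyl antibody and lower in the others. The common part, chr15:72230285-72231318, reached 905 bases into the gene and held no Ikaros core.

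LDHA, which makes lactate from pyruvate, had scores of 15 in Nalm6, 33 in REH and 63 in treated JM1. The percentiles were 24.5, 79.2 and 97.2, so the Nalm6 peak was a low one in its list. Neither untreated JM1 nor 697 had any peak counted for LDHA. All 3 peaks were about as wide, from 2012 to 2298 bp, and shared chr11:18394457-18396267, most of it downstream of the TSS. Of the pair of E-boxes printed above, the nearer one began 87 bases before the TSS and lay within this shared part, and the farther one at 185 bases lay outside it. The shared part also held 2 matches to the Ikaros core, outside the promoter window read above.

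TXNIP scored 31 in treated JM1 (86.2nd percentile) and 41 in REH (86.7th), the fewest lists with a main promoter peak after SLC2A3. The 2 peaks shared chr1:145996638-145997334, which ends 59 bases before the TSS and holds the match shown in the TXNIP sequence. No peak was counted for TXNIP in 697 or Nalm6. Untreated JM1 had a peak of score 13 (29.8th percentile) named for TXNIP in intergenic sequence 3.69 kb upstream, which did not overlap the treated JM1 peak.

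**Figure D2:**
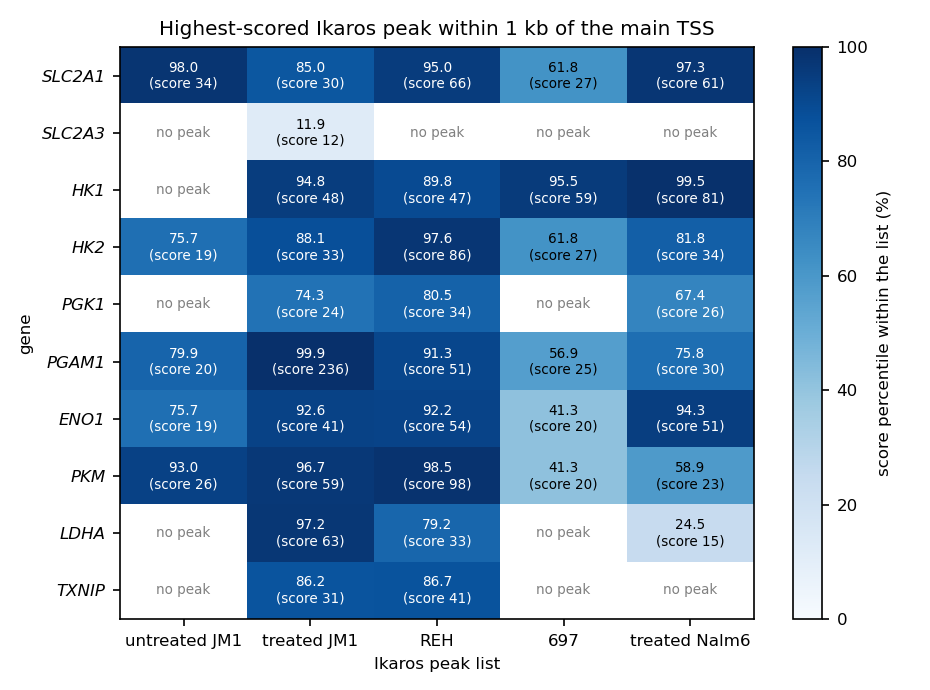
Percentile, within its own list, of the highest-scored peak within 1000 bp of the main TSS of each gene (rows) in each list (columns), with the authors' score in brackets and a colour scale from 0 to 100%. PGAM1 in treated JM1 (99.9) and HK1 in Nalm6 (99.5) are the darkest cells, and 12 of the 50 cells have no peak.

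For comparison, among all protein-coding genes with a main promoter peak the median percentile of the best such peak was 89.6 in treated JM1, 88.9 in REH, 85.2 in Nalm6, 70.8 in untreated JM1 and 68.2 in 697. A high percentile was thus usual for a promoter peak, most of all in the longer lists. In untreated JM1 all 5 genes with such a peak (SLC2A1, HK2, PGAM1, ENO1 and PKM) were above the median. In treated JM1 5 of 10 were above it (HK1, PGAM1, ENO1, PKM and LDHA). In REH 6 of 9 were above it, the genes below being PGK1, LDHA and TXNIP. In Nalm6 3 of 8 were above it (SLC2A1, HK1 and ENO1), and in 697 1 of 6, HK1.

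By any TSS, 5 of the 10 genes had a promoter peak in untreated JM1, where 58.8% of all protein-coding genes did. The count was 10 in REH (81.8% of all genes), 10 in treated JM1 (81.2%), 8 in Nalm6 (74.3%) and 6 in 697 (49.5%). By the main TSS alone, REH had 9, without SLC2A3, against 78.8% of all genes. The other counts by the main TSS were again 5 in untreated JM1 (53.2%), 10 in treated JM1 (78.0%), 6 in 697 (45.1%) and 8 in Nalm6 (70.0%). Each of these counts by any TSS stood within 2 genes of what the share of all genes would give for 10.

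Between the JM1 lists, 5 genes (SLC2A3, HK1, PGK1, LDHA and TXNIP) had a promoter peak in treated JM1 and none in untreated JM1, and 0 had the reverse. Among all protein-coding genes 23.0% had that pattern and 0.564% the reverse by any TSS, and 25.5% and 0.679% by the main TSS. The 10 genes were chosen when this pattern at 5 of them was already known, so their count is not independent evidence about glycolysis genes. All 5 also had a promoter peak in untreated REH, made with the same antibody. SLC2A1, HK2, PGAM1, ENO1 and PKM had a peak in all 5 lists, as did 41.8% of all genes by any TSS and 36.1% by the main TSS. PGK1 and LDHA shared the pattern of treated JM1, REH and Nalm6 without untreated JM1 and 697, found in 9.8% of all genes (10.6% by the main TSS). HK1 lacked a peak in untreated JM1 alone, a pattern of 6.18% of all genes by any TSS and 7.03% by the main TSS. SLC2A3 and TXNIP had peaks in treated JM1 and REH alone by any TSS (4.32%), and TXNIP by the main TSS (4.91%). None of the 10 lacked a peak in every list, as 14.7% of all genes did by any TSS and 17.5% by the main TSS. The lists without peaks at PGK1, LDHA and TXNIP included the 2 shortest ones. With every list limited to its 19652 top-scored peaks, the length of the 697 list, HK1, PGK1, LDHA and TXNIP still had a promoter peak in treated JM1 and none in untreated JM1, a pattern of 21.1% of all genes at that length. PGK1 did so only by its far TSS, at the peak given to AL356235.1. Its main promoter peak ranked 21640 in treated JM1 and was lost at that length. SLC2A3 then had none in either JM1 list. PGK1, PKM and LDHA then had none in Nalm6, which left 5 genes there against 54.4% of all genes. The counts at that length were 10 in REH (62.2%), 9 in treated JM1 (60.5%), 6 in 697 (49.5%) and 5 in untreated JM1 (45.3%).

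**Figure D3:**
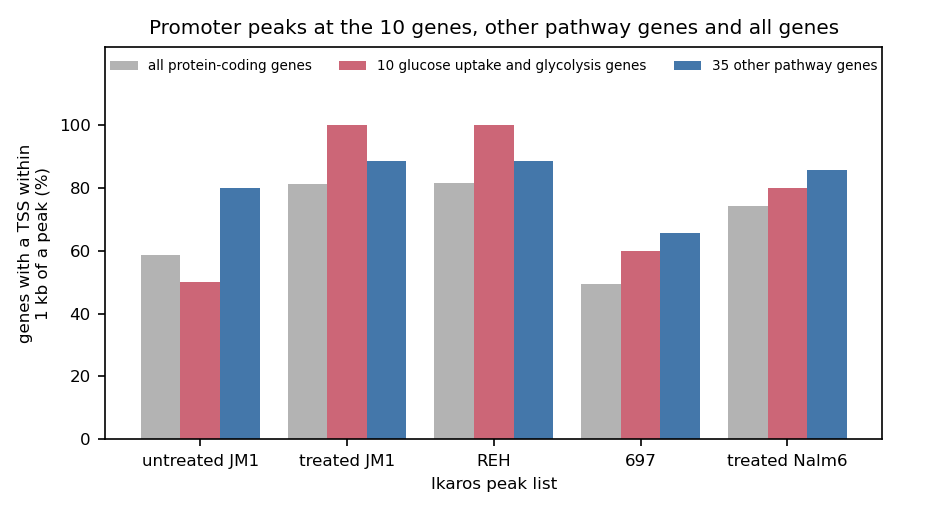
Percentage of genes with any TSS within 1000 bp of an Ikaros peak in each list, for all protein-coding genes (grey), the 10 glucose uptake and glycolysis genes (red) and 35 other pathway genes (blue). The red bars stand at 50% in untreated JM1 and 100% in treated JM1 and REH, beside grey bars of 58.8, 81.2 and 81.8%.

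The remaining genes of the pathway were taken from a list of 35 genes of glucose uptake, glycolysis, lactate export and glucose sensing. By any TSS, 31 had a promoter peak in treated JM1 (88.6%), 31 in REH (88.6%), 30 in Nalm6 (85.7%), 28 in untreated JM1 (80.0%) and 23 in 697 (65.7%). The shares of all protein-coding genes were 81.2, 81.8, 74.3, 58.8 and 49.5% in the same order. In all 5 lists 22 of the 35 had one, or 62.9%, against 41.8% of all genes. Treated JM1 alone of the JM1 pair covered 3 of the 35, or 8.57%, against 23.0% of all genes, and no test was made of these shares. The genes whose best peak near any TSS ranked highest throughout were PFKL, a phosphofructokinase with no percentile under 90.8, PFKFB3, which makes its activator fructose 2,6-bisphosphate (88.3), SLC16A3, a lactate exporter (83.3), and GPI, which turns glucose 6-phosphate to fructose 6-phosphate (82.4). No list had a promoter peak at SLC2A2, PFKFB1 or BPGM, 8.57% of the 35, against 14.7% of all genes. SLC2A2 is the transporter of liver and pancreatic beta cells, and BPGM makes 2,3-bisphosphoglycerate in red cells.

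Peaks near a TSS other than the main one numbered 26, with a median percentile of 42.1 and a highest of 85.0. In SLC2A1 they included an internal start in the widest of the 130 peaks, 9.60 kb in treated JM1 and 9.51 kb in REH, which covered the 3′ part of the gene with scores of 27 and 31. HK1 had such a peak about 19 kb into the gene in treated JM1 (score 22), REH (12) and Nalm6 (18). PKM had low peaks of this kind in treated JM1, REH and Nalm6, with scores from 11 to 18. These internal starts belong to shorter annotated transcripts, whose use in these lines was not measured.

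Away from promoters, the 61 gene body peaks merged into 37 sites when peaks overlapping by at least 1 bp were joined. Many were low in their lists, and the number of sites was 14 with scores of at least 20 and 8 with lists of equal length. HK1 held 15 of them, HK2 8, SLC2A1 6, SLC2A3 4, PKM 2, and PGK1 and ENO1 1 each. PGAM1, LDHA and TXNIP, which span 7.25, 13.9 and 4.14 kb, held none. These peaks were narrower than those at the main promoters, with a median width of 581 against 1474 bp. They also ranked lower in their lists, with a median percentile of 39.5 against 86.5. Gene body peaks were found at 6 of the 10 genes in REH (45.2% of all protein-coding genes), 5 in treated JM1 (47.5%), 5 in Nalm6 (42.6%), 4 in untreated JM1 (29.5%) and 0 in 697 (16.8%). The HK1 gene spans 132 kb, HK2 59.2 kb and SLC2A1 33.5 kb. The longest gene, PGK1 at 219 kb, held 1 site, and SLC2A3 at 99.8 kb held 4. A link between gene length and the number of sites was not tested.

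Most gene body sites were not shared widely. Of the 37, 19 were in 1 list, 5 in 2, 11 in 3, 1 in 4 and 1 in 5. REH had a peak on 26 of the sites, Nalm6 on 19, treated JM1 on 18, untreated JM1 on 7 and 697 on 1. The 14 sites common to treated JM1 and REH were 77.8% of the treated JM1 sites and 53.8% of the REH sites. The site in 4 lists lay in intron 2 of SLC2A1 (chr1:42934948-42936689), with scores of 12 in untreated JM1 and 22 in Nalm6. In treated JM1 and REH it fell inside the wide peaks over the 3′ part of the gene. The site in 5 lists, which was no longer in all 5 under either of those limits or with a reciprocal overlap of 50%, was at the far end of PKM and ran into the neighbouring GRAMD2A. There the untreated JM1 peak, the 697 peak and the stronger Nalm6 peak (scores 15, 23 and 45) did not reach PKM and lay 924, 932 and 1063 bases beyond its end.

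The JM1 lists shared 4 gene body sites, with 3 in untreated and 14 in treated JM1 alone. A site was counted for a list when any peak of the list overlapped it, of whatever class. Only the shared HK2 site had a gene body peak in both JM1 lists. At HK1 the treated peak was the main promoter peak, and at SLC2A1 it was the wide peak near another TSS. At the end of PKM the untreated peak did not reach the gene. The 3 sites of untreated JM1 without a treated peak were the far upstream PGK1 site, the last exon of HK1 and the end of intron 8 of HK2. At the last exon of HK1 (chr10:69400434-69401995) the scores were 20 in untreated JM1, 29 in REH and 46 in Nalm6, at the 79.9th, 72.6th and 91.9th percentiles. The authors classed these 3 peaks as at a transcript end and gave them to the gene TACR2. The intron 8 site of HK2 had scores of 15 in untreated JM1, 23 in REH and 17 in Nalm6 (49.8th, 56.1st and 34.8th percentiles) in peaks of 549, 556 and 454 bp at nearly the same place. Treated JM1, the longest list, had no peak on either site. The middle 300 bases common to the 3 HK2 peaks, chr2:74878471-74878770 on the + strand, are shown because this site was called in the shorter JM1 list and not in the longer one. They run from intron 8 into exon 9 and hold 1 Ikaros core, read on the other strand and in capitals.
HK2 intron 8: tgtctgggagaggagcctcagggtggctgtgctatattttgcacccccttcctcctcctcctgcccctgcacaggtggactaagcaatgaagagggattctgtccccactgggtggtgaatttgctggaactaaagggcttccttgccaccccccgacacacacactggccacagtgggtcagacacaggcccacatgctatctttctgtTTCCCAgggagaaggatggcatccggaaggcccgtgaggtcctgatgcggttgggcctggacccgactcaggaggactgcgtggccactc

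**Figure D4:**
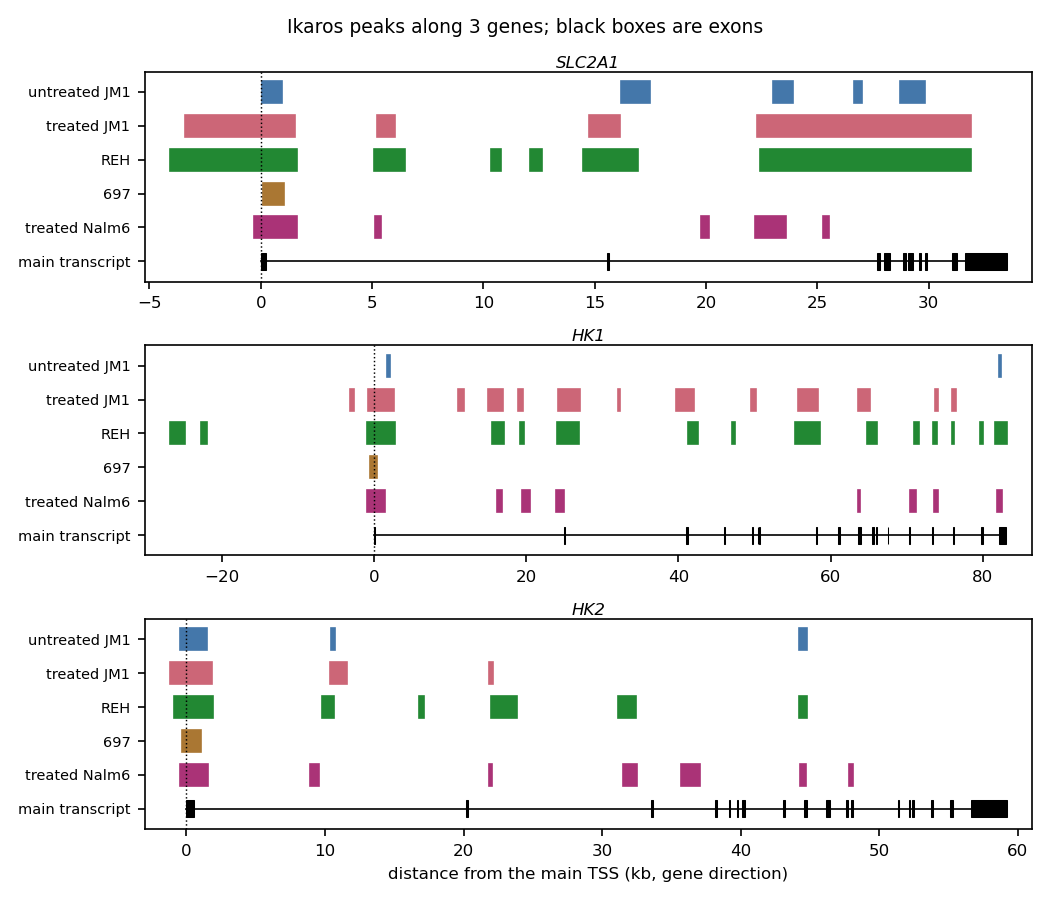
Ikaros peaks along SLC2A1, HK1 and HK2 in each list, with the exons of the main transcript as black boxes. The x axis is the distance from the main TSS in kb in the direction of the gene and each bar is 1 peak. Colours mark the lists. In 697 each gene has a bar at the main promoter and no other. Bars are most frequent in REH at SLC2A1 and HK1, and in Nalm6 at HK2. The HK2 bar about 44.5 kb from the TSS, at intron 8, is present in untreated JM1, REH and Nalm6.

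HK1 had the most gene body sites, 12 in REH, 9 in treated JM1, 5 in Nalm6 and 2 in untreated JM1. Those in 3 lists included intron 1 at chr10:69333785-69335901, with scores of 28 in Nalm6, 23 in REH and 15 in treated JM1, and intron 15 at chr10:69392266-69392941, with 19, 31 and 14. In HK2, intron 1 held a site in untreated JM1 (score 20), treated JM1 (20) and REH (15) at chr2:74843884-74845729, and the Nalm6 peak of score 14 ended before it. At ENO1, treated JM1 and REH shared a site near the end of the gene (chr1:8862301-8863879, scores 19 and 27) that the authors gave to MIR6728.

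In the 300 bases at the centre of each peak, the Ikaros core was found in 8 of the 38 main promoter peaks and 16 of the 61 gene body peaks of these genes. Among all peaks the share was 27.6% in treated JM1, 27.5% in REH, 26.3% in Nalm6, 25.5% in untreated JM1 and 17.9% in 697. The peaks of the same site in several lists share most of their sequence, so they are not separate observations. The median share of G and C was 66.3% at the main promoter peaks and 56.3% at the gene body peaks. The medians over all peaks of a list ran from 55.0% in treated JM1 to 69.3% in 697. These medians and the shares over all peaks mix peaks of every class. No value was read for the promoter peaks or gene body peaks of all genes, so a like comparison is missing.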

How the data were processed

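Bowtie2 2.3.4.3, MACS2 2.1.1, HOMER 4.10 and GRCh38 are named per the submitters' processing notes. What the score measures and the call settings were not given in the sources used here. Every deposited list gives the authors' peak position, whole-number score, annotation and nearest gene, per the file headers. The Nalm6 list is not tied to 1 of its 2 Ikaros libraries, and the 5 input libraries were not used here. Peaks were set beside GENCODE release 44 and the GRCh38 sequence, and 0 peaks ran past a chromosome end. Of 9 members in the RefSeq promoter table (GRCh38.p14), 7 had the window used here. HK1 and PGAM1, whose promoters are printed above, did not. Promoter calls were tested on simulated peaks. The values are counts and within-list percentiles from Python 3.11.15 with pandas 2.3.3. The members and lists were chosen with earlier results of these data known. The named genes are the 10 members, the 4 pathway genes with the highest lowest percentile among those in all 5 lists, and those in none. The 3 under other observations were chosen after their values were seen.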

Additional observations from a re-analysis of the deposited data

How the results depend on the processing

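Of 50 values recomputed under other settings for 9 counts, 41 stayed within 1.5 times of the reported count and 9 did not. With scores of at least 20, the genes with a promoter peak fell from 5 to 3 in untreated JM1 (26.5% of all genes at that limit) and from 5 to 3 in all 5 lists (17.5%), gene body sites from 37 to 14, and those in all 5 lists from 1 to 0. With each list limited to its 19652 top-scored peaks, Nalm6 kept 5 of 8 genes (54.4% of all genes), 4 genes had a peak in treated and not untreated JM1 (21.1%), gene body sites numbered 8 and those in all 5 lists 0. PGK1 was among those 4 genes by its far TSS alone. Under the authors' own promoter class and gene name, 2 genes, SLC2A1 and PGAM1 (12.5% of all genes), had a promoter peak in all 5 lists. In treated JM1 and REH, SLC2A1 was counted only by the wide peaks over the 3′ part of the gene. Its main promoter peaks in those lists were given to SLC2A1-AS1. HK2 and ENO1 had peaks given to neighbouring genes, and the Nalm6 peak of PKM was classed as exon. A reciprocal overlap of 50% left 0 gene body sites in all 5 lists. Taking the canonical transcript as the gene body, an alternative added after seeing the data, left 30 of 37 sites. No paired analysis was possible because each condition had 1 peak list and no test across samples was made. For the same reason no replicate could be left out. List length limits each absence: a missing peak says only that none was called.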

Other observations

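The following genes of the pathway list were chosen after their values were seen. PDK1, a kinase that holds back entry of pyruvate into mitochondria, had a promoter peak at the 1.91st percentile in untreated JM1 and at the 98.2nd in treated JM1, 96.8th in REH, 88.3rd in 697 and 92.4th in Nalm6. SLC16A1, a lactate transporter, stood at the 18.2nd percentile in untreated JM1, 98.1st in treated JM1, 93.0th in REH, 44.9th in 697 and 67.4th in Nalm6. ARRDC4, an arrestin relative of TXNIP, had a promoter peak in all 5 lists, unlike TXNIP itself, at the 58.2nd percentile in untreated JM1, 26.0th in treated JM1, 89.8th in REH, 68.2nd in 697 and 99.0th in Nalm6. Each value is from 1 list and has no replicate check.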
